A study of Mus musculus with 14 samples.

Results

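Collagens, laminins and their companion glycoproteins form the extracellular matrix, and their transcripts were followed here in Y1 cells, a mouse adrenocortical tumour line, after fibroblast growth factor 2 (FGF-2). The genes were taken by symbol: every collagen chain (Col, a number, a, a number), every laminin chain (Lama, Lamb or Lamc with a number), and Fn1, Tnc, Thbs1, Thbs2, Spp1, Sparc, Nid1, Nid2, Lox and Loxl2. This gave 65 of the 24465 genes counted, of which 44 had at least 10 counts summed over the 6 RNA libraries and were tested with the 12260 genes of that depth. Just inside that limit lay Col27a1 with 10 counts and just outside it Col12a1 and Col4a3 with 9 counts each. All cells had 48 h without serum. The cells of the FGF-2 group were then given 10% fetal bovine serum plus 10 ng/ml FGF-2, those of the serum group the same serum with no FGF-2, and both were harvested 5 h later. Polyadenylated RNA was sequenced in 3 libraries of each group, and chromatin with acetylated lysine 27 of histone H3 (H3K27ac), found at active promoters and enhancers, in 2 libraries of each group. The labels name a single cell line and do not say that numbered libraries came from separate cultures, so p-values measure the spread between these libraries only.

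Collagens are built from 3 chains wound into a helix, and some types combine partner chains encoded by separate genes. Fibrillar collagens make the cables of connective tissue, type IV collagen and laminins make the sheet of the basement membrane that surrounds adrenal cortical cell cords, and matricellular proteins such as tenascin C, osteopontin and the thrombospondins act on cells more than they bear load. Many of these genes are known to respond to growth factors, and their proteins are read by integrins on the cell surface.

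The RNA libraries held 5625004 to 12696426 counts in genes. The matrix genes took 1.59%, 1.53% and 1.30% of these counts in FGF-2 libraries, against 1.63%, 1.75% and 1.91% in serum libraries. These are shares of unscaled totals. The scaling factors behind the levels and the main test below were 0.866 to 0.909 in FGF-2 libraries and 1.08 to 1.15 in serum libraries. The shares therefore do not compare matrix RNA between the groups on that scale. Of the 44 tested, 7 rose and 5 fell with FGF-2 (27.3% called), against 40.4% of all 12260 genes tested, 20.0% higher and 20.4% lower (edgeR's quasi-likelihood test, Benjamini-Hochberg adjusted p under 0.05). The median log2 fold change of the 44 was -0.14, and that of all genes tested was -0.02. Scaling by library totals alone shifted the median of all genes to -0.37 and gave 5 matrix genes higher and 15 lower, and upper-quartile scaling shifted it to -0.12 and gave 6 higher and 7 lower. The groups did not overlap in 7 matrix genes with FGF-2 above and in 4 with FGF-2 below, where 26.3% of all tested genes lay above and 26.3% below.

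**Figure D1:**
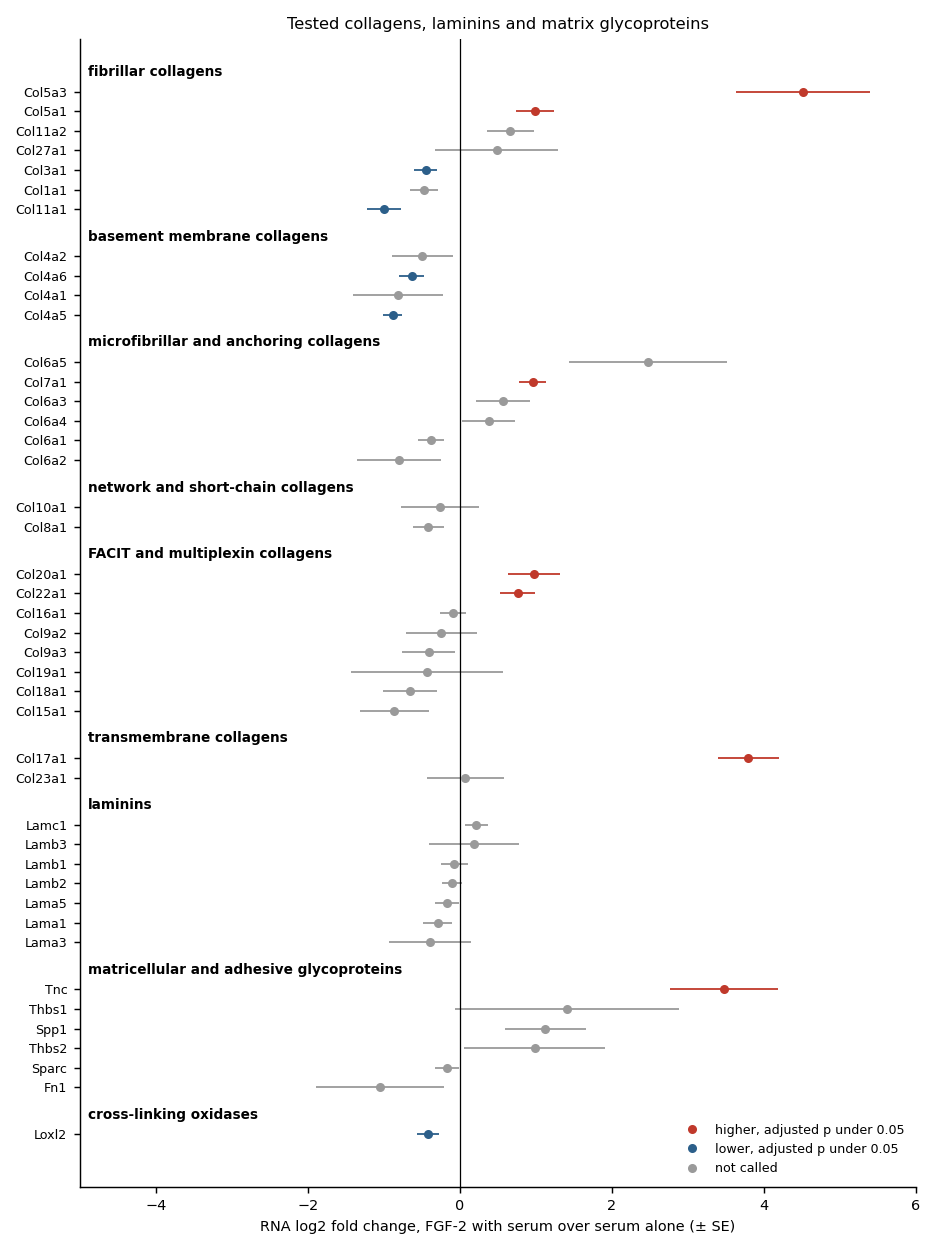
RNA log2 fold change (x axis, FGF-2 with serum over serum alone) with its SE for 43 of the 44 tested genes, grouped by protein class, from 3 libraries per group. Red points passed the test as higher and blue points as lower. Col5a3 at 4.52, Col17a1 at 3.80 and Tnc at 3.47 lie far to the right, and the 7 laminin chains drawn lie between -0.39 and 0.22.

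Levels are given as CPM, read counts divided by the normalised library size. The 11 markers of adrenocortical cells summed to 2370 to 3822 CPM in FGF-2 libraries and 846 to 1089 CPM in serum libraries, with Nr0b1 and Cyp21a1 at 0 counts. Star alone, which carries cholesterol into mitochondria, had 1727 to 3151 CPM with FGF-2 and 96.9 to 279 CPM with serum alone, and it was the one marker of the list called higher. The other 10 summed to 564 to 671 CPM with FGF-2 and 729 to 810 CPM with serum alone, and of these Fdxr (log2 fold change -1.01, edgeR adjusted p = 5.68e-05) and Cyp11b1 (-1.39, edgeR adjusted p = 0.00659) fell. Among 11 markers of fibroblasts and the adrenal capsule, Dcn and Wt1 had 0 counts, and Lum, Thy1 and Acta2 had 2, 3 and 1 in all. Their summed level was 94.6 to 140 CPM in FGF-2 libraries and 43.0 to 69.0 CPM in serum libraries. Twist1, a transcription factor and the list's single called gene, had 70.9 to 120 CPM with FGF-2 and 25.5 to 29.7 CPM with serum alone. Markers of endothelium and blood summed to 9.78 to 12.01 CPM with FGF-2 and 8.97 to 14.9 CPM with serum alone, and those of the adrenal medulla to 1.51 to 2.71 CPM with FGF-2 and 5.25 to 7.01 CPM with serum alone. The part of these markers in the matrix results was not tested. In bulk RNA, fewer cells making a transcript and less of it per cell cannot be told apart. Serum library 3 was the highest serum library in 6 of the 7 matrix genes that rose and in 4 of the 5 that fell. How often it was the highest over all genes was not counted. Without serum library 3, 10 matrix genes were called higher and 3 lower, against 2458 and 2554 of all genes. Without FGF-2 library 3 the counts were 4 and 3, against 2245 and 2349 of all genes, where all libraries together gave 2454 and 2503. Values without serum library 3 stand beside each call.

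Among the 11 fibrillar collagen genes, 7 were tested, of which 2 rose and 2 fell. Type V collagen, which nucleates and thins fibrils, had both of the increases. Col5a3, its alpha-3 chain, had 30.5, 17.6 and 29.1 CPM in FGF-2 libraries and 0.0954, 0.212 and 3.95 CPM in serum libraries, or 313, 198 and 161 counts against 1, 2 and 24. The groups did not overlap, although serum library 3 stood well above the other serum libraries. The log2 fold change was 4.52 ± 0.88 (SE, edgeR adjusted p = 0.0109), and 7.27 without serum library 3 (edgeR adjusted p = 1.06e-05). The call was lost when the replicate number was added to the fit (edgeR adjusted p = 0.0506).

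Col5a1, the alpha-1 chain of type V, had 2483, 2844 and 2833 CPM in FGF-2 libraries and 1036, 1037 and 2040 CPM in serum libraries. Each FGF-2 library exceeded each serum library, and the log2 fold change was 0.99 ± 0.25 (SE, edgeR adjusted p = 0.012). It was 1.38 without serum library 3, and without FGF-2 library 3 it was 0.96 and no longer passed (edgeR adjusted p = 0.0646). Col5a2, the alpha-2 chain with which alpha-1 is usually assembled, had 7 counts over all 6 libraries and was not tested.

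Col11a1, the alpha-1 chain of type XI collagen, the cartilage relative of type V, went the other way. It had 85.5, 106 and 125 CPM in FGF-2 libraries and 171, 175 and 286 CPM in serum libraries. All FGF-2 libraries lay below all serum libraries, and the log2 fold change was -1.0 ± 0.22 (SE, edgeR adjusted p = 0.00762), or -0.73 without serum library 3. Its partner Col11a2 had 4.27 to 6.496 CPM with FGF-2 and 2.195 to 4.61 CPM with serum alone and did not pass (log2 fold change 0.67 ± 0.31, SE, edgeR adjusted p = 0.106), but it passed without serum library 3 (0.94, edgeR adjusted p = 0.0301).

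Type III and type I collagens form the bulk fibrils of soft tissue. Col3a1, the single chain of type III, had 190, 265 and 197 CPM in FGF-2 libraries and 319, 259 and 314 CPM in serum libraries. The groups overlapped by 1 library on each side. The fall was -0.45 ± 0.15 (SE, edgeR adjusted p = 0.0308), and the call was lost without serum library 3 (-0.42, edgeR adjusted p = 0.0718) and also without serum library 1 or FGF-2 library 1 or 3.

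Col1a1, the alpha-1 chain of type I, had 1832, 2653 and 1829 CPM in FGF-2 libraries and 3122, 2503 and 3152 CPM in serum libraries. FGF-2 library 2 lay above serum library 2, and the difference did not pass (log2 fold change -0.48 ± 0.18, SE, edgeR adjusted p = 0.0583). It passed in the DESeq2 Wald test (adjusted p = 0.0262) and with limma-voom (adjusted p = 0.0332). Col1a2, which encodes the alpha-2 chain of the usual type I heterotrimer, had 0 counts in all 6 libraries. Over a group's 3 libraries, 0 counts allow up to 0.0988 CPM with FGF-2 and 0.131 CPM with serum alone (3 counts of the group's total, counting error only). Whether the counting covered all exons of Col1a2 is not known, as no source used here names its annotation. Of the other fibrillar genes, Col27a1 had 10 counts and a log2 fold change of 0.48 ± 0.81 (SE), Col2a1 had 8 counts and Col24a1 had 2.

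The 250 bases upstream of the starts of Col5a3 and Col1a2 are shown because type V and type I collagen are the fibrillar types in which partner chains differed so widely in counts here. They come from RefSeq on GRCm38.p6, are written 5' to 3' on the gene's strand, and lie at chr9:20815068-20815317 (minus strand) and chr6:4505368-4505617 (plus strand). Capitals mark GGGCGG or its complement, the letters of a GC box, whose first bases lay 63 and 41 bases before the Col5a3 start and 205 and 188 bases before the Col1a2 start.
Col5a3: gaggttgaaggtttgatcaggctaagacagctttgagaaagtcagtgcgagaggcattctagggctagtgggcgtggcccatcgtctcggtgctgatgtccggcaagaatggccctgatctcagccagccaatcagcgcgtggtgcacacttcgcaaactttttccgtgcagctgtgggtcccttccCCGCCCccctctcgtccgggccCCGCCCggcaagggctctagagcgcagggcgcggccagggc
Col1a2: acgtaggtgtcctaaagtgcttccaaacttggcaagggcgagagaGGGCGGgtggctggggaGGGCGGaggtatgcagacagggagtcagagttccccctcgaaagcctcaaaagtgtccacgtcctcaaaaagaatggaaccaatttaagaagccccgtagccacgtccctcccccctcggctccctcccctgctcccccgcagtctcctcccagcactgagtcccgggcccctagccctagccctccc

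**Figure D2:**
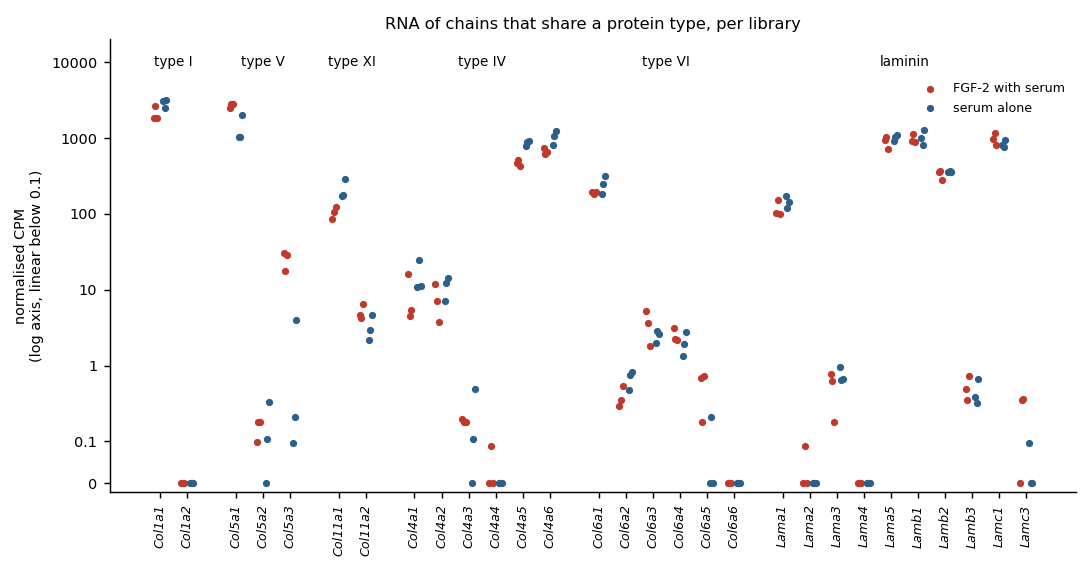
Normalised CPM (y axis, log scale that is linear below 0.1) of chain genes of collagen types I, V, XI, IV and VI and of the laminins, with a point per library, FGF-2 with serum in red left of serum alone in blue. CPM is not corrected for transcript length, so heights are to be compared between groups of a gene. Col5a3 has FGF-2 points at 17.6 to 30.5 and serum points at 0.0954 to 3.95, Col1a2 lies at 0 in all libraries, and the laminin points of the groups overlap.

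Basement membrane collagen fell in its alpha-5 and alpha-6 chains. Of 6 type IV genes, 4 were tested, 2 fell and none rose, and all 4 log2 fold changes lay between -0.89 and -0.50. Col4a5 had 470, 507 and 434 CPM in FGF-2 libraries and 781, 900 and 928 CPM in serum libraries. The groups lay far apart, with little spread inside either, at a log2 fold change of -0.89 ± 0.13 (SE, edgeR adjusted p = 0.000333). Leaving out serum library 3 gave -0.84.

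Col4a6, whose chain trimerises with alpha-5, had 740, 625 and 647 CPM in FGF-2 libraries and 816, 1079 and 1226 CPM in serum libraries. The groups did not overlap, and the log2 fold change was -0.63 ± 0.16 (SE, edgeR adjusted p = 0.00938), or -0.51 without serum library 3. Both calls were kept in all 14 alternative settings run. Col4a1 and Col4a2, the chains of the commonest type IV trimer, had 4.53 to 16.3 and 3.79 to 11.9 CPM with FGF-2 and 10.98 to 24.6 and 7.06 to 14.3 CPM with serum alone. Their groups overlapped and neither passed (edgeR adjusted p = 0.326 and 0.363), although Col4a1 fell by 1.68 on the log2 scale without FGF-2 library 1 (edgeR adjusted p = 0.0174). Col4a3 had 9 counts and Col4a4 had 1, in all libraries together.

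Col4a5 and Col4a6 point away from each other on chromosome X with starts 1343 bases apart, and Col4a1 and Col4a2 run in opposite directions on chromosome 8 from starts 21 bases apart. The upstream 250 bases of the Col4a5 and Col4a6 starts are shown because these neighbours fell together. They lie at chrX:141475169-141475418 (plus strand) and chrX:141474077-141474326 (minus strand) in the same RefSeq build. Each holds GGGCGG or its complement once, in capitals, starting 30 and 21 bases before the start.
Col4a5: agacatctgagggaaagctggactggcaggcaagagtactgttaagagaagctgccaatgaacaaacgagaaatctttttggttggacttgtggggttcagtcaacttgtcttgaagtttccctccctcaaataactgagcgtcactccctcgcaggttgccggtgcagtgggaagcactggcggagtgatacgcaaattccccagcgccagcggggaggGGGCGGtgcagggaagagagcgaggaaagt
Col4a6: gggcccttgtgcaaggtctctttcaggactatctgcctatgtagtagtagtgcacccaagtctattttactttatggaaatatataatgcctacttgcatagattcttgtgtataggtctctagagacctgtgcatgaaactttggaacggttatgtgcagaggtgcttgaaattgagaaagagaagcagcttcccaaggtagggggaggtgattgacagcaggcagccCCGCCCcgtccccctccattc

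No gene of the laminins, which form the other network of the basement membrane, passed this test. Of 11 laminin chain genes, 8 were tested and 0 were called (edgeR), with 0 at an unadjusted p under 0.05. Library-total scaling called Lama1, Lama5 and Lamb2 lower, and Lama1 was also called without FGF-2 library 2 (log2 fold change -0.53, edgeR adjusted p = 0.0306). Lama5, a widely used alpha chain, had 949, 1030 and 719 CPM in FGF-2 libraries and 912, 1027 and 1094 CPM in serum libraries (log2 fold change -0.17 ± 0.16, SE, edgeR adjusted p = 0.418). The groups overlapped.

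The beta-1, beta-2 and gamma-1 chains also had overlapping groups. Lamb1 had 914, 1136 and 882 CPM in FGF-2 libraries and 991, 818 and 1278 CPM in serum libraries (log2 fold change -0.07 ± 0.18, SE). Lamb2 had 356, 373 and 278 CPM in FGF-2 libraries and 358, 371 and 354 CPM in serum libraries (log2 fold change -0.10 ± 0.13, SE). Lamc1, the gamma-1 chain found in most laminins, had 970, 1149 and 816 CPM in FGF-2 libraries and 811, 759 and 953 CPM in serum libraries (log2 fold change 0.22 ± 0.16, SE, edgeR adjusted p = 0.292). In each of these genes the order of the libraries mixed both groups.

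Lama1, the alpha chain of laminin-111, had 99.4 to 153 CPM with FGF-2 and 119 to 173 CPM with serum alone. Lama3 and Lamb3, chains of an epithelial laminin of skin anchorage, had 36 and 24 counts in all. Lama4 had 0 counts, Lama2 had 1 and Lamc3 had 7. The nidogens, which clip laminin to type IV collagen, were not tested, as Nid1 had 0 counts and Nid2 had 1.

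A collagen of epithelial anchorage and a collagen of the cell surface rose, 1 of 6 tested microfibrillar and anchoring genes and 1 of 2 tested transmembrane genes. Col7a1, the collagen of anchoring fibrils, had 50.4, 61.2 and 35.0 CPM in FGF-2 libraries and 26.1, 24.8 and 25.2 CPM in serum libraries. The lowest FGF-2 library exceeded every serum library, and the log2 fold change was 0.96 ± 0.18 (SE, edgeR adjusted p = 0.00168), or 0.95 without serum library 3. Col17a1, a transmembrane collagen of hemidesmosomes in epithelia, had 8.98, 7.02 and 11.2 CPM in FGF-2 libraries and 0.477, 0.319 and 1.32 CPM in serum libraries. The groups were widely separated, at 62 to 92 counts per FGF-2 library against 3 to 8 per serum library, with a log2 fold change of 3.80 ± 0.40 (SE, edgeR adjusted p = 4.44e-05) and 4.42 without serum library 3. Both genes kept their call in all 14 alternative settings run.

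Beaded-filament type VI collagen was not called. Col6a1 had 194, 185 and 194 CPM in FGF-2 libraries and 184, 251 and 312 CPM in serum libraries, with serum library 1 at the FGF-2 level. The log2 fold change was -0.38 ± 0.17 (SE, edgeR adjusted p = 0.0921) and -0.57 without serum library 1 (edgeR adjusted p = 0.012). Its partners Col6a2 and Col6a3 had 0.293 to 0.541 and 1.80 to 5.17 CPM with FGF-2 and 0.477 to 0.824 and 2.00 to 2.87 CPM with serum alone, and neither passed. Col6a4 (log2 fold change 0.38 ± 0.35, SE) and Col6a5, with 15 counts (2.47 ± 1.04, SE, edgeR adjusted p = 0.0797), did not pass, although Col6a5 passed without FGF-2 library 2 or serum library 2. Col6a6 had 0 counts.

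The fibril-associated and multiplexin collagens, which sit on fibril surfaces or next to basement membranes, had 8 tested genes, of which 2 rose. Col22a1, known from tissue junctions such as that of muscle and tendon, had 21.1, 22.6 and 26.5 CPM in FGF-2 libraries and 9.16, 13.7 and 19.1 CPM in serum libraries (log2 fold change 0.76 ± 0.23, SE, edgeR adjusted p = 0.0234). Col20a1 had 3.81, 4.62 and 5.23 CPM in FGF-2 libraries and 1.72, 1.70 and 3.79 CPM in serum libraries (log2 fold change 0.98 ± 0.34, SE, edgeR adjusted p = 0.0379). The highest serum library of Col20a1 lay just under its lowest FGF-2 library. Without serum library 3 the values were 1.02 for Col22a1 and 1.38 for Col20a1, and both calls were lost without FGF-2 library 2 or 3, without serum library 1 or 2, and with library-total scaling, that of Col20a1 also with upper-quartile scaling.

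Col16a1 had 258, 361 and 268 CPM in FGF-2 libraries and 296, 263 and 385 CPM in serum libraries, and did not pass (log2 fold change -0.09 ± 0.17, SE, edgeR adjusted p = 0.715). Col15a1 and its relative Col18a1, the source of endostatin, had log2 fold changes of -0.86 ± 0.46 and -0.66 ± 0.36 (SE) and did not pass. Col15a1 fell by 1.62 on the log2 scale without FGF-2 library 1 (edgeR adjusted p = 0.0263). Col9a2, Col9a3 and Col19a1 had log2 fold changes between -0.44 and -0.24 and did not pass. In Col9a3 the groups did not overlap, at 1.08 to 1.37 CPM with FGF-2 and 1.53 to 1.699 CPM with serum alone (edgeR adjusted p = 0.37). Col9a1 (0 counts), Col12a1 (9) and Col14a1 (6) were not tested. Among the network collagens, Col8a1 had 91.5 to 151 CPM with FGF-2 and 150 to 213 CPM with serum alone (log2 fold change -0.42 ± 0.21, SE, edgeR adjusted p = 0.142), Col10a1 had a log2 fold change of -0.26 ± 0.52 (SE), and Col8a2 had 2 counts. Of the other cell-surface and less studied collagens, Col23a1 had a log2 fold change of 0.07 ± 0.50 (SE), Col13a1, Col25a1 and Col26a1 had 0 counts, and Col28a1 had 3.

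**Figure D3:**
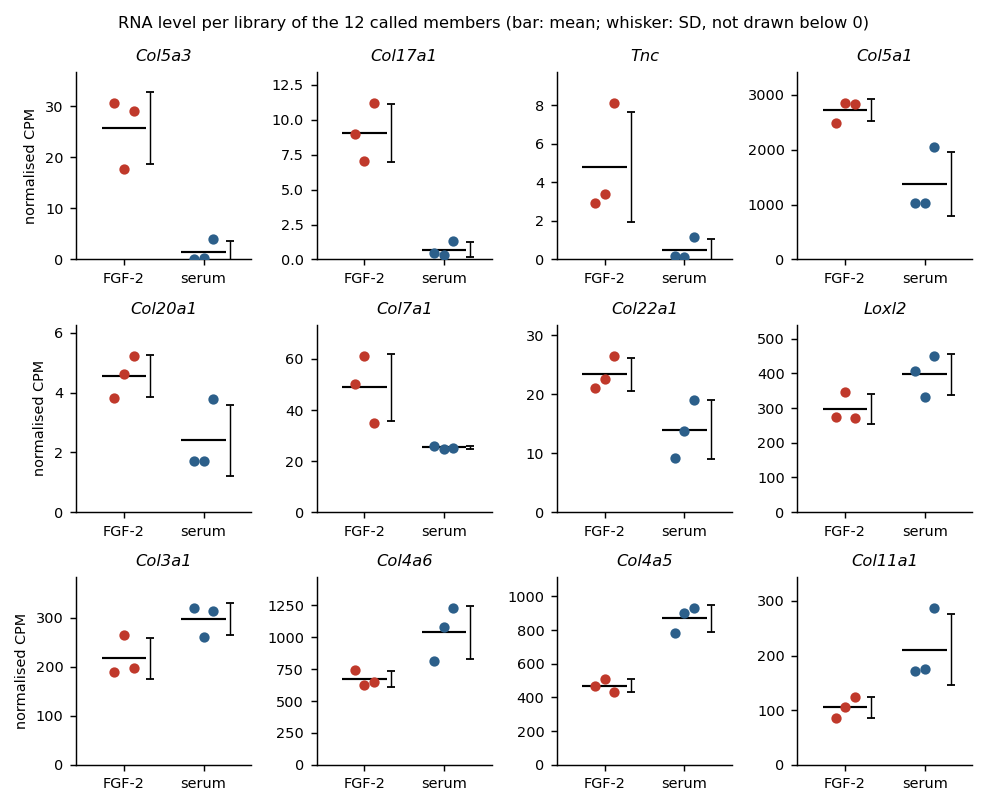
Normalised CPM (y axis, from 0) of the 12 matrix genes that passed the RNA test, with a point per library, FGF-2 with serum left of serum alone, the mean as a bar and the SD as a whisker (n = 3 per group). The groups do not overlap in Col5a3, Col17a1, Tnc, Col5a1, Col20a1, Col7a1, Col22a1, Col4a6, Col4a5 and Col11a1, and they overlap in Loxl2 and Col3a1.

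Of the matricellular and adhesive glycoproteins, all 6 were tested and 1 rose. Tnc, which encodes tenascin C, an anti-adhesive protein of healing and growing tissue, had 2.93, 3.38 and 8.12 CPM in FGF-2 libraries and 0.191, 0.106 and 1.15 CPM in serum libraries. The groups did not overlap, on 30, 38 and 45 counts against 2, 1 and 7. The log2 fold change was 3.47 ± 0.71 (SE, edgeR adjusted p = 0.00443), 4.78 without serum library 3, and the call was kept in all 14 alternative settings run.

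Spp1, which encodes osteopontin, had 4939, 2276 and 2190 CPM in FGF-2 libraries and 798, 2418 and 1094 CPM in serum libraries. FGF-2 library 1 stood above the rest, serum library 2 lay among the FGF-2 libraries, and the difference did not pass (log2 fold change 1.13 ± 0.53, SE, edgeR adjusted p = 0.147) but did without serum library 2 (1.72, edgeR adjusted p = 0.0155). Thbs2, which encodes thrombospondin 2, had 321, 205 and 639 CPM in FGF-2 libraries and 51.3, 120 and 420 CPM in serum libraries. In both groups library 3 was the highest, and the log2 fold change was 0.98 ± 0.93 (SE, edgeR adjusted p = 0.456). It was 2.17 without serum library 3 (edgeR adjusted p = 0.0491), a fit that kept the high FGF-2 library 3.

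Thbs1 repeated that order at lower level, with 1.07, 1.78 and 7.58 CPM in FGF-2 libraries and 0.191, 0 and 4.12 CPM in serum libraries (log2 fold change 1.41 ± 1.47, SE, edgeR adjusted p = 0.495). It passed without serum library 3 (4.76, edgeR adjusted p = 0.0327), a fit that again kept FGF-2 library 3, the highest of its group. Sparc, which encodes a collagen-binding protein, had 2125, 2783 and 2307 CPM in FGF-2 libraries and 2691, 2447 and 2978 CPM in serum libraries, with overlap (log2 fold change -0.17 ± 0.16, SE, edgeR adjusted p = 0.415). Fn1, which encodes fibronectin, had 24 counts in all and did not pass. Of the cross-linking oxidases, Lox had 3 counts, and Loxl2 had 276, 346 and 271 CPM in FGF-2 libraries and 409, 332 and 451 CPM in serum libraries. Loxl2 fell by 0.42 on the log2 scale (SE 0.15, edgeR adjusted p = 0.041), with overlapping groups. The call was lost without serum library 3 (-0.32, edgeR adjusted p = 0.117) and also without serum library 1 or FGF-2 library 1 or 3.

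The promoters of Col17a1 and Tnc are shown because, with Col5a3, these genes had the largest log2 fold changes among the called matrix genes. They are the 250 bases upstream of the RefSeq starts at chr19:47692043-47692292 and chr4:64047016-64047265, both on the minus strand. Capitals mark TATAAA, the core of a TATA box, and GGGCGG, searched on both strands. In Col17a1 TATAAA began 140 and 91 bases before the start, and in Tnc TATAAA began 126 and GGGCGG 167 bases before it.
Col17a1: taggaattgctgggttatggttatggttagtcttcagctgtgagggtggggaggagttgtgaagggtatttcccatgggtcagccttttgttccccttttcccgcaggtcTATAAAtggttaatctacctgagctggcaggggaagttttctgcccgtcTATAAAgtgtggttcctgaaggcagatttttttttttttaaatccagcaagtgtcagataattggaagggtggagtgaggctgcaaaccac
Tnc: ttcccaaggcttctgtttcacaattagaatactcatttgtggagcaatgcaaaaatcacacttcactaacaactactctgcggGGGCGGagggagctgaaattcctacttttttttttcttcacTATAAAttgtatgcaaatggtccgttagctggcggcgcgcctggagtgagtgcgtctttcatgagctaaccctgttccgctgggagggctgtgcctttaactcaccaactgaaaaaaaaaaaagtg

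Upstream windows of that length from RefSeq were at hand for 45 of the 65 matrix genes, 51 windows in all. Windows of a gene can overlap, and those of Tnc shared the same TATAAA and GGGCGG, counted in each. TATAAA stood in 9 of the 51, GGGCGG in 27, and TGANTCA (an AP-1 site) and CCGGAAG (an ETS site) in 1 each. Of 32851 windows of all genes, 12.4% held TATAAA, 32.7% GGGCGG, 6.75% TGANTCA and 6.91% CCGGAAG. Neither of these last motifs stood in the 6 windows printed, and no matches overlapped there. These are matches of letters and show no binding.

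H3K27ac was annotated by the authors to 31 of the matrix genes, in 186 of 40772 regions. In the authors' deposited table, at a false discovery rate (FDR) under 0.05, 12 of the 186 were higher and 1 was lower with FGF-2 (6.99% called), against 9.98% of all regions, 8.33% higher and 1.64% lower. A limma fit to log2 of the deposited signal called 19 higher and 5 lower, against 16.3% of all regions, 12.6% higher and 3.73% lower. Leaving out a library gave 2 higher and 1 lower (FGF-2 library 1), 4 higher and 2 lower (FGF-2 library 2), 27 higher and 1 lower (serum library 1), or 20 higher and 9 lower (serum library 2). In the same fits the counts over all regions were 1191 higher and 552 lower, 2350 and 626, 6695 and 687, and 4816 and 2442, against 5145 and 1521 with all libraries. Each of these fits leaves 1 library in a group, which is assumed to vary like the other group's. The 13 regions belonged to 7 genes. Among regions within 1 kb of a gene's start, the authors' deposited table called 0 of the 18 of matrix genes and 2.7% of all such regions, and limma and edgeR on recovered reads also called 0 of the 18 (3 and 0 had an unadjusted p under 0.05 by limma and in the authors' deposited table). Matrix regions lay in introns in 50.0% of cases and at promoters in 14.0%, where all regions did so in 31.9% and 35.4%.

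Col5a1 had 19 regions, of which 5 were called higher. Its region over exon 3, chr2:27927028-27928347 (mm10), 40.6 kb downstream of the start, had a normalised signal of 97.95 and 83 in FGF-2 libraries and 7.37 and 23.4 in serum libraries. The log2 fold was 2.56 (FDR 4.03e-06) in the authors' deposited table, and peaks had been called there in both FGF-2 libraries and in serum library 2. Peaks of serum library 2 were called against an input of 110273836 fragments, and those of the other libraries against inputs of 12241177 to 15672630. A region in intron 1, chr2:27915584-27917288, had 232.98 and 222 in FGF-2 libraries and 111.42 and 124.52 in serum libraries (log2 fold 0.95, FDR 0.00164, the authors' deposited table). The other called regions lay at 31.1 kb in the same intron and, between genes, at -81.9 and -43.6 kb from the start, with log2 folds of 1.43, 1.34 and 2.56 in the authors' deposited table.

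Over the Col5a1 start itself the signal was 400.35 and 434 in FGF-2 libraries and 342.55 and 299.18 in serum libraries. The groups did not overlap, but the log2 fold of 0.38 did not pass (FDR 0.251, the authors' deposited table). In all, FGF-2 libraries exceeded serum libraries in 12 of the 19 regions and lay below them in 1. Over all 40772 regions, 33.6% had FGF-2 above and 18.0% had FGF-2 below.

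Col7a1 had 5 regions, and FGF-2 libraries exceeded serum libraries in each, where 33.6% of all regions had FGF-2 above. The called region lay over exon 114 near the gene's end, chr9:108982795-108983933, with a signal of 73.22 and 62 in FGF-2 libraries and 17.5 and 14.21 in serum libraries (log2 fold 2.09, FDR 0.000176, the authors' deposited table). Peaks were called there in both FGF-2 libraries and in neither serum library. The region at -0.694 kb from the start had 19.97 and 20 in FGF-2 libraries and 11.05 and 9.19 in serum libraries and did not pass (FDR 0.473, the authors' deposited table).

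**Figure D4:**
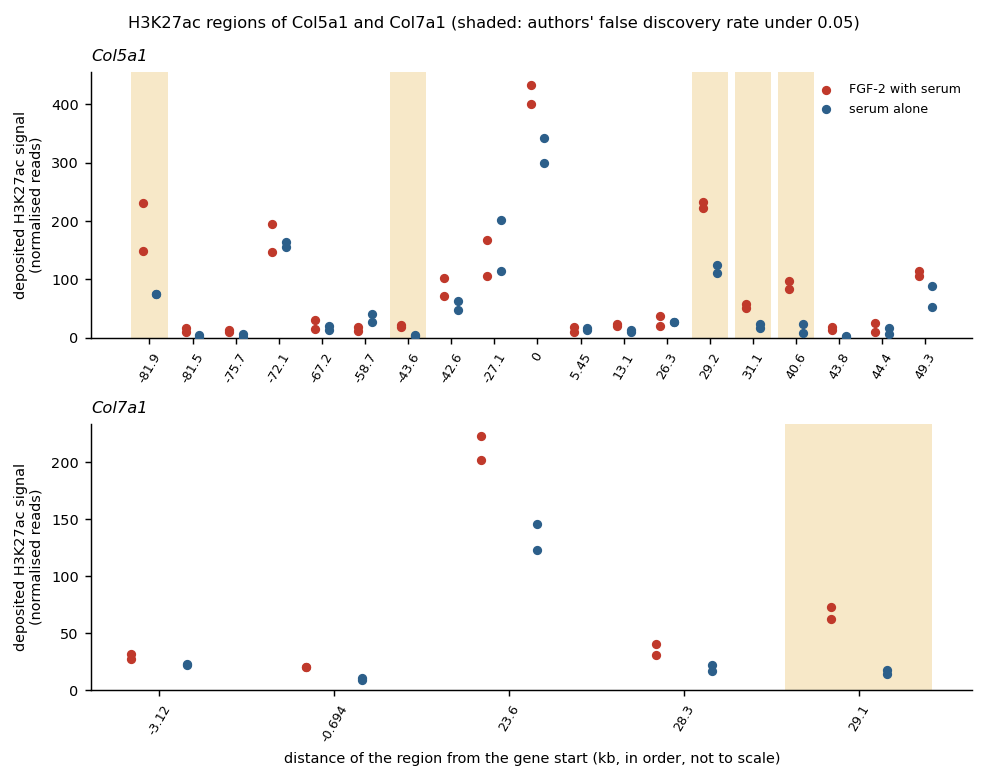
Deposited H3K27ac signal (y axis, normalised reads) of each region of Col5a1 and Col7a1, ordered by distance from the gene start in kb (x axis, not to scale), FGF-2 with serum in red left of serum alone in blue, 2 libraries each. Shaded regions passed the authors' test; the region at 40.6 kb of Col5a1 has 97.95 and 83 with FGF-2 against 7.37 and 23.4 with serum alone.

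Regions also rose at genes whose RNA was not called. Col16a1 had 3 called regions, and the nearest, 2.89 kb downstream of its start (chr4:130050730-130051940), had a signal of 86.54 and 103 in FGF-2 libraries and 36.83 and 42.62 in serum libraries. In the authors' deposited table its log2 fold was 1.25 (FDR 0.00622), while the region over the start had 0.15 (FDR 0.873). Sparc had 1 called region at -3.06 kb from its start (chr11:55423136-55425336), at 166.41 and 141 in FGF-2 libraries and 85.64 and 82.73 in serum libraries (log2 fold 0.87, FDR 0.0178, the authors' deposited table). Col4a2 had 1 in its intron 4 (log2 fold 1.0, FDR 0.0127) and Col15a1 had 1 at -30.1 kb from its start (log2 fold 3.05, FDR 0.0322), both in the authors' deposited table.

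At the type IV pair that fell in RNA, the promoter regions did not pass. Over the Col4a5 start the signal was 161.66 and 185 in FGF-2 libraries and 253.23 and 179.68 in serum libraries (log2 fold -0.32, FDR 0.54, the authors' deposited table). At the Col4a6 start it was 33.28 and 45 in FGF-2 libraries and 81.03 and 50.98 in serum libraries (log2 fold -0.75, FDR 0.284, the authors' deposited table). The groups overlapped at Col4a5 and not at Col4a6. Over all 40772 regions, 18.0% had FGF-2 below and 33.6% had FGF-2 above. Of the 10 regions of Col4a6, 5 had FGF-2 libraries below serum libraries and 0 had them above. A region in its intron 2, 21.2 kb downstream of the start, had 28.53 and 14 in FGF-2 libraries and 44.2 and 45.13 in serum libraries. It did not pass in the authors' deposited table (log2 fold -1.07, FDR 0.186), but was lower with limma (log2 fold -1.12, adjusted p = 0.0252) and with edgeR on recovered reads (adjusted p = 0.0471). Over the starts of Lama5, Lamb1, Lamb2 and Lamc1, all 4 libraries had a peak and log2 folds lay between 0.11 and 0.29 in the authors' deposited table, none called.

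**Figure D5:**
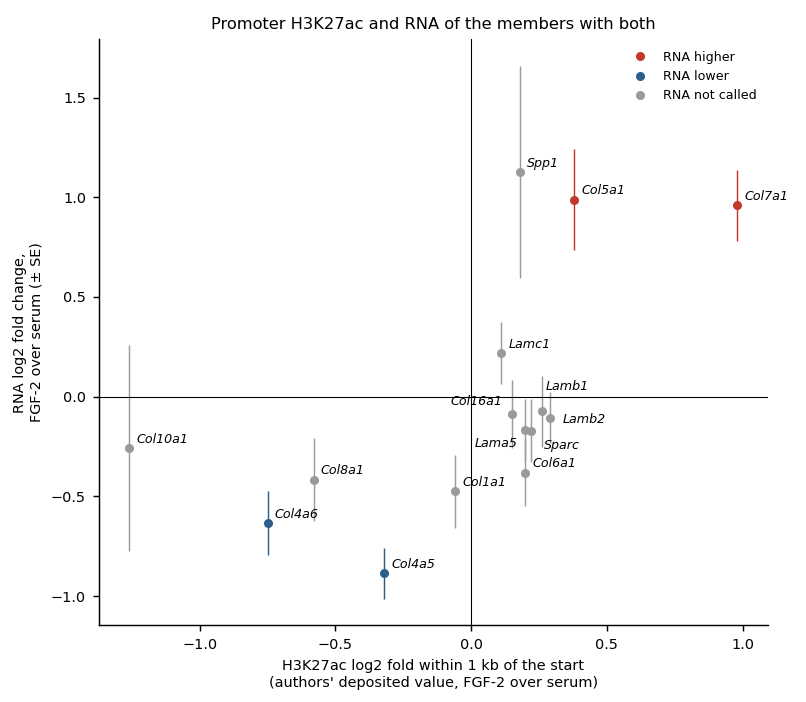
H3K27ac log2 fold of the region nearest to the start (x axis, the authors' deposited value) and RNA log2 fold change with its SE (y axis), both FGF-2 over serum alone, for the 15 matrix genes with a region within 1 kb. Folds of H3K27ac run from -1.26 at Col10a1 to 0.98 at Col7a1 and none passed at an FDR of 0.05; RNA was called higher for Col5a1 and Col7a1 and lower for Col4a5 and Col4a6.

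Of the 7 genes whose RNA rose, 4 had an annotated region and 2 of these, Col5a1 and Col7a1, had a region called higher in the authors' deposited table, where 27.3% of all 2109 genes that rose and had a region did. With limma all 4 had one, the region of Col22a1 in its intron 44 at an adjusted p of 0.0491, against 34.2% of those 2109 genes. Of the 5 whose RNA fell, 4 had a region, and 0 of these had one called lower in the authors' deposited table, where 7.5% of all 2228 genes that fell and had a region had one lower. With limma 1 of the 4, Col4a6, had a lower region, against 13.8% of those genes. Such shares count genes with at least 1 called region, so they depend on the number of regions per gene. Matrix genes had 186 regions over 31 genes, and all genes had 40772 over 13028. By peaks, 22 of the 65 genes had an H3K27ac peak in all 4 libraries over the gene or within 1 kb of it, 21 of them tested. In 33 genes no library had a peak there, of which 16 were among the 21 with fewer than 10 counts, Col1a2 and Nid1 included. The other 17 were tested, among them Col5a3, Col17a1, Tnc and Loxl2, which were called in RNA, and Thbs2, Thbs1 and Fn1, which were not. Col17a1 was annotated 1 region, at -7.37 kb from its start, with a signal of 32.33 and 24 in FGF-2 libraries and 11.97 and 7.52 in serum libraries. It did not pass in the authors' deposited table (log2 fold 1.53, FDR 0.115) and did with limma (log2 fold 1.46, adjusted p = 0.019).

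Related lists were counted in the same RNA fit, in which 40.4% of all genes passed. These lists were chosen with earlier results of these data known, so their shares are a description and no test of the lists. Of 23 tested matrix receptors, 9 rose and 5 fell (60.9% called), with a median log2 fold change of 0.28. Itga5, the fibronectin-binding integrin alpha-5, had 6189, 5472 and 7308 CPM in FGF-2 libraries and 540, 519 and 1228 CPM in serum libraries (log2 fold change 3.05 ± 0.36, SE, edgeR adjusted p = 0.000389). Its partner Itgb1, shared by the collagen and laminin receptors, had a log2 fold change of 1.30 ± 0.21 (SE, edgeR adjusted p = 0.000621). Dag1, which encodes the laminin receptor dystroglycan, had -0.97 ± 0.15, and Itgb5 had -1.14 ± 0.12 (SE, edgeR adjusted p = 0.000498 and 5.67e-05).

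Of 25 tested transcription factors and TGF-beta pathway genes known to control matrix genes, 17 rose and 2 fell (76.0% called), with a median log2 fold change of 1.13. Egr1, an immediate early factor, had 585, 638 and 699 CPM in FGF-2 libraries and 93.3, 148 and 109 CPM in serum libraries (log2 fold change 2.46 ± 0.17, SE, edgeR adjusted p = 4.00e-06), and Smad3, which carries TGF-beta signals, had 2.08 ± 0.11 (SE, edgeR adjusted p = 1.64e-06). Creb3l1, a regulator of collagen secretion that is also in the next list, fell by 1.45 (SE 0.31, edgeR adjusted p = 0.0039).

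Of 27 tested genes of collagen folding, secretion and processing, 4 rose and 7 fell (40.7% called), with a median log2 fold change of -0.11. Mia3, which loads procollagen for export, had 656 ± 54.7 CPM with FGF-2 and 363 ± 49.6 CPM with serum alone (SD, n = 3 each), and Plod3, a lysyl hydroxylase, had 1385 ± 262 against 813 ± 102 CPM. P3h2, a prolyl 3-hydroxylase of basement membrane collagen, went down to 89.3 ± 8.66 CPM with FGF-2, against 190 ± 14.9 CPM with serum alone (log2 fold change -1.09 ± 0.12, SE, edgeR adjusted p = 5.2e-05), and Adamts14, a procollagen N-proteinase, fell by 0.99 on the log2 scale. Of 26 other matrix glycoproteins, 3 rose and 4 fell (26.9% called), with a median log2 fold change of -0.25, and without serum library 1 or 2 the calls numbered 4. Smoc1, a basement membrane protein, had 85.1 ± 10.6 CPM with FGF-2 and 225 ± 6.96 CPM with serum alone (SD, n = 3 each), and Ltbp3, which binds latent TGF-beta, had 2162 ± 280 against 1374 ± 213 CPM.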

How the data were processed

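Polyadenylated RNA (3 libraries per group) and H3K27ac chromatin (2 libraries per group) of Y1 cells were compared between FGF-2 with serum and serum alone, with groups taken from the treatment labels. The 65 genes, their classes and the 4 further lists were chosen with earlier results of these data known. The submitters' processing notes name STAR 2.5.2a, HTSeq 0.10.0, MACS2 2.2.6, SAMtools 1.1, bedtools 2.15.0, DiffBind, ChIPseeker and DESeq2, and the build mm10.

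RNA values are whole read counts per gene symbol as the authors deposited them. Reads given to no single gene were 37.0% to 43.2% of each library and were left out. No source used here gives the annotation or strand setting of the counting, so genes that overlap or lie antisense are uncertain, and so is what 0 counts mean for Col1a2, Nid1 and Lama4. A library's limit for a count of 0 was 0.236 to 0.533 CPM (3 counts of its total), for counting error only. Counts were tested with edgeR 4.0.16 in R 4.3.3 (robust quasi-likelihood, TMM scaling, at least 10 counts over 6 libraries), with Benjamini-Hochberg adjustment over 12260 genes at 0.05. DESeq2 1.42.0 and limma-voom (limma 3.58.1) were alternatives. The chi-square per degree of freedom between libraries of 1 group was 9.58 to 25.6, so each was kept.

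The H3K27ac region table as deposited gives a normalised read signal per library, a log2 fold, p-values and a false discovery rate. Its sign, FGF-2 over serum, was checked against the signals. Dividing 3 libraries' signals by the value of 1 read gave whole reads within 0.02 for 100% of values, and FGF-2 library 2 was whole as deposited. On these reads edgeR, added after the data were seen, called 5118 regions higher and 1475 lower. limma (trend, robust) was fitted to log2(signal + 1). Peaks were called per library against its input, per the file headers, from 11840994 to 14156846 fragments, with inputs of 12241177 to 15672630 fragments and of 110273836 for serum library 2. The headers list pileup signal, fold over background (a ratio) and −log10 p and q values at a q limit of 0.01. A region counted as holding a peak from an overlap of 1 base. Regions were joined to genes by the authors' symbol, and gene positions and promoter sequences came from RefSeq tables of GRCm38.p6, in which all 65 genes were found. The results of 1 gene of the set are counted but not reported here by gene.

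Values per library and full statistics were given for genes called in RNA with at least 1 CPM in a group and for the 10 uncalled genes of highest mean CPM, regions nearest to their starts and up to 4 called regions per gene, and up to 3 genes each way per list. Col11a2, Col4a1, Col4a2, Col8a1, Col9a3, Col6a2, Col6a3, Lama1 and Thbs1 were given values to complete their families, and Twist1 and Star after their values were seen. Alternatives covered scaling, filter, tool, threshold, a replicate term and each library left out. Figures used Python 3.11.15 with matplotlib 3.10.9.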

Additional observations from a re-analysis of the deposited data

How the results depend on the processing

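The counts of matrix genes were 7 higher and 5 lower. They were 5 and 15 with library totals alone, where all genes gave 1148 higher and 4813 lower, and 3 and 3 at a threshold of 0.01, where all genes gave 1536 and 1589. Leaving out 1 library at a time gave 4 (without FGF-2 library 3) to 10 higher and 3 (without FGF-2 or serum library 3) to 7 lower. With library totals alone, 18 genes of collagen folding and processing were called, against 11, and 4 to 8 of the other glycoproteins, against 7, with 1 library left out, 4 without serum library 1 or 2. The calls of Col11a1, Col17a1, Col4a5, Col4a6, Col7a1 and Tnc held in all 14 alternatives.

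Same-numbered RNA libraries' deviations correlated at -0.12, 0.06 and 0.38, and only library 3 of FGF-2 correlated best with its own number. FGF-2 library 1 correlated best with serum library 2 (0.42), and FGF-2 library 2 with serum library 1 (0.33). The labels give no pairing, no RNA fit used these crossed pairs, and the main test used no pairs. With a replicate block, 8 matrix genes were higher and 6 lower, and 2542 and 2658 of all genes. Col5a3 then missed the threshold (4.61, edgeR adjusted p = 0.0506), and Col11a2, Col8a1 and Thbs1 passed it. For H3K27ac the block gave 16 regions higher and 3 lower by limma, and 3997 and 947 of all regions. As same-numbered libraries correlated at -0.25, the crossed pairing was also fitted, chosen after seeing the data, and gave 25 higher and 7 lower, and 6230 and 2194 of all regions.

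Of the authors' 12 higher regions and 1 lower region of matrix genes, 5 higher and 1 lower remained at a rate of 0.01, and 0 and 0 within 1 kb of a start. The limma fit gave 19 and 5, and with 1 library left out 2 (without FGF-2 library 1) to 27 higher and 1 to 9 lower, the group with 1 library being assumed to vary like the other. The Spp1 promoter region reversed to -0.22 with limma, against 0.18.

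Sign changes of RNA log2 fold changes occurred in 7 of the uncalled genes reported. With 1 library left out, the range was -0.2589 to 0.0747 for Col16a1, -1.0924 to 0.169 for Col19a1, -0.2363 to 0.58 for Col23a1, -0.2248 to 0.1047 for Lamb1, -0.1877 to 0.0114 for Lamb2 and -0.0312 to 0.4536 for Lamb3. Library totals gave -0.2696 for Col23a1, -0.1533 for Lamb3 and -0.1235 for Lamc1. Upper-quartile scaling gave -0.0229 for Col23a1, and limma-voom 0.0412 for Col19a1. The cause was not tested. The 10 tested genes with 10 to 50 counts had SEs of 0.47 to 1.04 on the log2 scale. Changes well above their SE could be missed at this depth, as Col6a5 did not pass at 2.47 ± 1.04 (SE, edgeR adjusted p = 0.0797).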
